A study of Mus musculus with 4 samples.

Results

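A set of 10 genes of the hypoxia response were followed in cultured mouse cells kept in normal or high glucose: the HIF subunits Hif1a, Epas1 and Arnt, the prolyl hydroxylases Egln1, Egln2 and Egln3, the ubiquitin ligase subunit Vhl, and the hypoxia-induced genes Mxi1, Ero1l and Ndrg1. They are 10 of the 23238 gene symbols in the count files, and all 10 were abundant enough to enter the test across genes. The members were chosen by their place in the pathway, but with earlier results of this same contrast known, among them the lower values of Mxi1, Ero1l, Egln3 and Ndrg1 and the level of Hif1a. Their differences between the groups are therefore given as a description. Where the fit across all genes called a member this is stated as a count, and it is not evidence for the choice of genes.

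The cells are labelled as cavernous endothelial cells from mouse corpus cavernosum, the erectile tissue of the penis. The culture medium held fetal bovine serum, antibiotics and heparin, and glucose exposure lasted 72 hours. Each condition had 2 libraries, numbered 1 and 2 for normal and 2 and 4 for high glucose. The labels give no strain, age, glucose concentration, oxygen tension or osmotic control. They do not say whether replicates are separate cultures, so spreads and p-values describe these libraries and may be technical.

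Hypoxia-inducible factors are pairs of an oxygen-regulated alpha subunit (HIF-1α from Hif1a, HIF-2α from Epas1) and the constant partner ARNT. With oxygen present, the EGLN enzymes, which need iron and 2-oxoglutarate, hydroxylate prolines of the alpha subunit, VHL binds it there, and it is degraded. Control of the alpha subunits is thus largely at the protein level, which was not measured here, while Egln1 and Egln3 are themselves induced by HIF and form a feedback loop.

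Library totals ran from 46571770 to 74971589 counts. Normal glucose replicate 2, the shallowest, stood apart, with Pearson correlations of 0.984 to 0.985 with the other 3 libraries (log2 CPM across genes, a description), against 0.992 to 0.994 among those 3. The endothelial label had little behind it in the RNA: of 15 endothelial markers, 10 had a mean under 1 CPM (counts scaled to a common library size with edgeR's TMM factors), and Cldn5 was at 0 counts in 3 libraries. All 10 fibroblast markers had a mean above 1 CPM, with a median of 288 CPM against 0.672 CPM for the endothelial list. All 10 smooth muscle and pericyte markers were above 1 CPM as well, with a median of 37.1 CPM. The 8 leukocyte markers had a median of 8.94 CPM, with 3 under 1 CPM. The summed endothelial markers were 51.8 and 68.3 CPM in normal glucose and 44.6 and 48.0 CPM in high glucose, but Esam alone gave most of this (33.3 and 46.1 against 25.6 and 29.9 CPM). Without Esam the sums were 18.6 and 22.2 against 19.0 and 18.2 CPM and overlapped, and of 12 tested endothelial markers 3 were lower and 1, Kdr, higher in both high glucose libraries. The summed Schwann cell and neuron markers were 23.5 and 24.9 against 17.1 and 17.0 CPM, a difference carried by Tubb3 (14.7 and 19.5 against 9.29 and 9.31 CPM). Without Tubb3 they overlapped. These sums without a marker were added after the data were seen, and the part of Esam, Tubb3 or their cell types in the values below was not tested. The summed fibroblast markers overlapped between the groups (9583 and 11536 against 11509 and 10575 CPM). So did the smooth muscle and pericyte sums (537 and 753 against 540 and 549 CPM). Of those 10 markers, 3 were lower and 2 higher in both high glucose libraries. The leukocyte sums were 65.9 and 69.5 against 74.4 and 72.2 CPM, higher in both high glucose libraries, and their part was not tested either. In bulk RNA, fewer cells of a type and less RNA per cell cannot be told apart.

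Levels of different genes were compared as CPM per kilobase of exon. Ero1l was the most abundant of the 10 in every library, with 411 ± 41.0 in normal and 263 ± 11 CPM per kilobase in high glucose (SD, n = 2 per group here and below). Egln3 followed in normal glucose (100 ± 2.76) ahead of Hif1a (71.2 ± 12.8). In high glucose this order was exchanged, with Hif1a at 93.2 ± 2.46 and Egln3 at 63.8 ± 6.74 CPM per kilobase. Ndrg1 (59.7 ± 12.4 in normal glucose) and Egln1 (55.6 ± 5.07) lay within each other's spread there, as did Vhl (14.8 ± 1.37) and Mxi1 (14.2 ± 1.90). Arnt (7.32 ± 0.727), Epas1 (5.40 ± 2.15) and Egln2 (4.10 ± 1.21) were the scarcest, and Epas1 overlapped both of its neighbours. With the longest coding transcript as the length, Ndrg1 moved ahead of Egln3 in every library (116 and 156 in normal glucose), and Hif1a came to 100.2 against 98.5 for Egln3 in normal glucose replicate 1. The exchange of Hif1a and Egln3 between groups therefore depends on the length used.

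**Figure D1:**
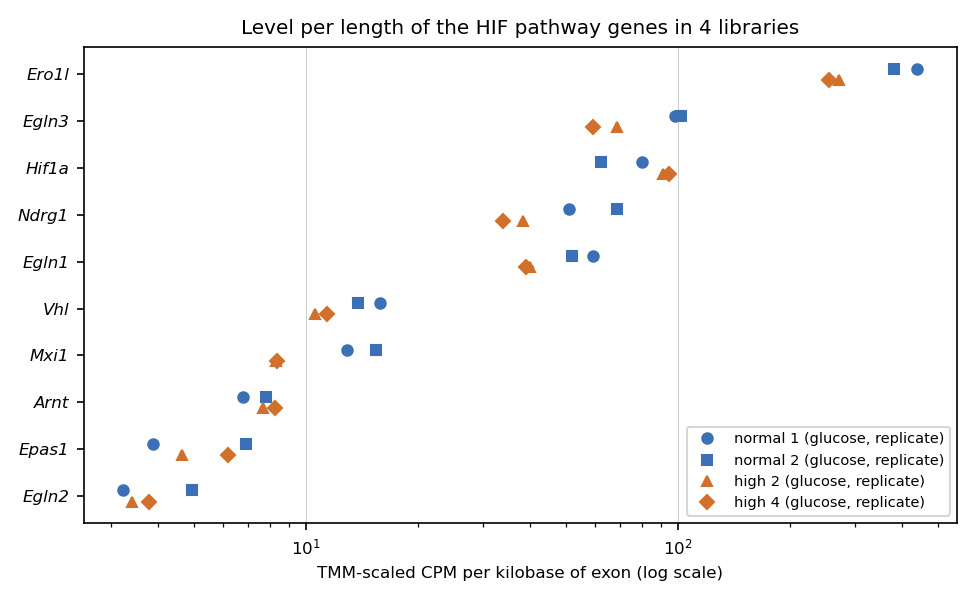
Level of each of the 10 genes as TMM-scaled CPM per kilobase of exon (log axis) in the 4 libraries, with blue symbols for normal and orange for high glucose. Ero1l stands highest in every library, between 255 and 440 CPM per kilobase, and Egln2 lowest, between 3.24 and 4.96.

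Hif1a, the alpha subunit of HIF-1 (chromosome 12, 73901375 to 73947530, plus strand, GENCODE vM21 on GRCm38), had 473 and 366 CPM in the normal glucose libraries and 539 and 560 CPM in high glucose. Both high glucose libraries were above both normal glucose ones, with a log2 fold change of 0.39 (SE 0.19). Normal glucose replicates differed by 0.37 on the log2 scale, and the gap between the nearest libraries of the groups was 0.19. Without normal glucose replicate 2, the lowest library, the log2 fold change of Hif1a was 0.21. Hif1a overlaps the antisense gene Gm15283 and the same-strand gene Gm49321, and strand use in counting is not given in the sources used here.

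Epas1, which encodes HIF-2α and was named for its abundance in endothelium (chromosome 17, 86753700 to 86833410, plus strand), had 21.7 and 38.7 CPM in normal glucose. In high glucose it had 26.0 and 34.5 CPM. The groups overlapped, with equal means of 30.2 CPM. Its direction turned with single libraries: the log2 fold change was 0.48 without normal glucose replicate 2 and -0.35 without normal glucose replicate 1. Hif1a stood 20.7- and 8.98-fold above Epas1 per kilobase in normal glucose and 19.7- and 15.4-fold in high glucose.

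Arnt, the shared dimer partner (chromosome 3, 95434388 to 95497240, plus strand), had 54.5 and 62.7 CPM in normal and 61.7 and 66.2 CPM in high glucose. The groups overlapped, and the log2 fold change was 0.13 (SE 0.18). Per kilobase, Hif1a exceeded Arnt 11.8- and 7.94-fold in normal and 11.9- and 11.5-fold in high glucose. With the longest coding transcript as the length it exceeded Arnt 7.96- and 5.35-fold in normal and 8- and 7.74-fold in high glucose. By either length the alpha subunit was the more abundant of the pair in this RNA.

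A list of 29 HIF partners and regulators was fixed by role, of which 26 were tested. None passed the threshold in either direction (edgeR, adjusted p from 0.745 upward over all genes tested). At an unadjusted p under 0.05 there were 2 lower, where 3.23% of all genes were, and 0 higher. Those were Cited2, a HIF target whose product competes with HIF-1α for the coactivators p300 and CBP (387 ± 113 and 241 ± 18.5 CPM), and Siah2, a ubiquitin ligase for EGLN proteins (25.8 ± 8.05 and 16.0 ± 3.50 CPM). Arnt2, a paralogue of Arnt, had 26.3 ± 1.13 and 35.3 ± 2.47 CPM, higher in both high glucose libraries (adjusted p = 0.920, edgeR). Arntl, a clock gene of the same protein family, had 65.7 ± 4.94 and 51.8 ± 3.21 CPM. Hif3a, a further alpha subunit, was low (4.09 ± 0.704 and 3.34 ± 1.18 CPM). Hif1an, the asparaginyl hydroxylase that blocks the HIF transactivation domain, had 16.9 ± 2.16 and 16.3 ± 0.059 CPM. The list's median log2 fold change was -0.03, against 0.00 over all genes tested. Of the 26, 7 were lower and 2 higher in both high glucose libraries, against 16.2% and 16.3% of all genes.

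Egln3, a prolyl hydroxylase gene strongly induced by hypoxia in many cells (chromosome 12, 54178981 to 54203860, minus strand), had 262 and 273 CPM in normal glucose and 182 and 157 CPM in high glucose. The normal glucose libraries differed by 0.06 on the log2 scale, and the gap to the nearest high glucose library was 0.52. The mean of the normal glucose libraries was 1.58 times that of the high glucose libraries (log2 fold change -0.66, SE 0.18).

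Egln1, whose product PHD2 is the main oxygen sensor in most tissues (chromosome 8, 124908587 to 124949324, minus strand), had 213 and 187 CPM in normal glucose. In high glucose it had 144 and 141 CPM, so both libraries were lower, with a log2 fold change of -0.49 (SE 0.18) and a gap of 0.38 between the groups. Egln2, the gene of PHD1 (chromosome 7, 27158658 to 27166802, minus strand), had 9.07 and 13.9 CPM against 9.59 and 10.6 CPM. The Egln2 groups overlapped, and its log2 fold change was -0.18 (SE 0.25) but 0.16 without normal glucose replicate 2. P4htm, a membrane-bound relative of these enzymes, had 2.01 ± 0.0493 and 1.47 ± 0.507 CPM.

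Summed per kilobase, the 3 hydroxylase genes came to 161 and 159 CPM in normal glucose and to 112 and 102 CPM in high glucose. Egln3 made up 61.2% and 64.3% of that sum in normal and 61.2% and 57.9% in high glucose. Its share was thus alike in the nearest libraries of the groups, while the sum was apart. Egln2 made up 2.01% to 3.72%. By the longest coding transcript the Egln3 share was 60.8% and 63.6% in normal and 60.6% and 57.2% in high glucose. Set against Hif1a per kilobase, the summed hydroxylases were 2.00 and 2.56 times as high in normal glucose and 1.23 and 1.07 times in high glucose. With the longest coding transcript as the length these ratios were 1.62, 2.08, 0.992 and 0.871, and both high glucose libraries were again below both normal glucose ones. These are RNA ratios and hold no information on enzyme activity.

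**Figure D2:**
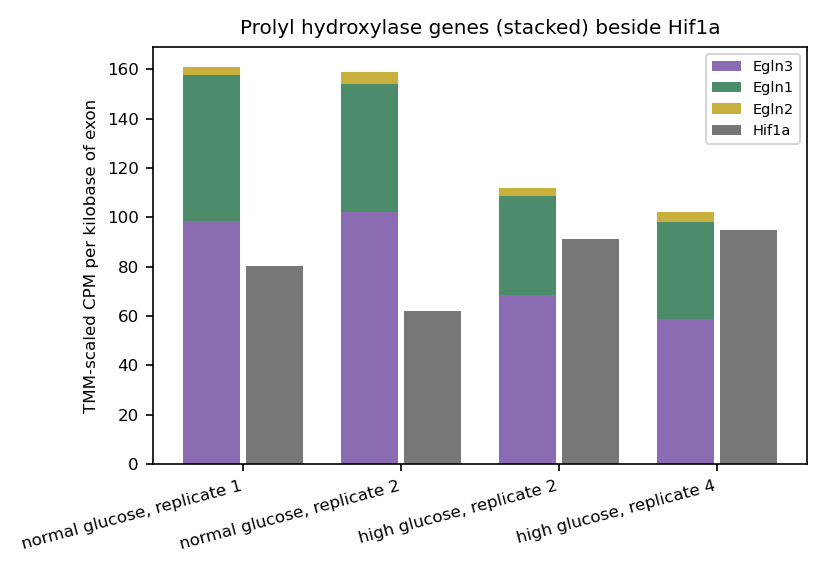
Stacked bars give Egln3, Egln1 and Egln2, and grey bars Hif1a, as TMM-scaled CPM per kilobase of exon in each library. The hydroxylase sum is 161 and 159 in normal against 112 and 102 in high glucose, while Hif1a is 80.3 and 62.2 against 91.4 and 94.9.

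Vhl, which recruits hydroxylated alpha subunits to a ubiquitin ligase (chromosome 6, 113623959 to 113631633, plus strand), had 47.2 and 41.4 CPM in normal and 31.8 and 34.1 CPM in high glucose. Both high glucose libraries were lower, with a log2 fold change of -0.43 (SE 0.19) and a gap of 0.28. The ratio of Egln1 to Vhl per kilobase varied little across libraries, 3.75 and 3.76 in normal and 3.77 and 3.44 in high glucose. Among the other subunits of the VHL complex, Tceb1 (elongin C), Tceb2 (elongin B), Cul2 and Rbx1 all had groups that overlapped, with log2 fold changes from -0.02 to 0.26. These 4 were named after their values were seen.

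Mxi1, a MAX-binding repressor that opposes MYC and is induced by HIF (chromosome 19, 53310518 to 53375810, plus strand), had 87.7 and 106 CPM in normal glucose. It had 56.8 and 57.3 CPM in high glucose, the most uniform pair among the 10 genes (0.01 apart on the log2 scale). Its log2 fold change of -0.76 (SE 0.18) was the largest of the 10 in size with all 4 libraries, and the gap between groups was 0.62. Mxi1 overlaps the antisense gene Gm10197. In the MYC and MAX network, 0 of 12 tested genes passed (edgeR, smallest adjusted p = 0.856), and 1 was lower at an unadjusted p under 0.05. That was Myc, with 76.2 ± 18.5 and 52.8 ± 0.663 CPM. The shared partner Max had 119 ± 18.5 and 93.3 ± 2.01 CPM, and the repressor Mxd3 38.4 ± 0.454 and 27.9 ± 6.07 CPM. Mxd4 had 6.90 ± 0.454 and 7.90 ± 0.257 CPM, and Mycn was under 1 CPM in all 4 libraries.

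Ero1l, the endoplasmic reticulum oxidase that reoxidises protein disulfide isomerase (chromosome 14, 45283087 to 45318771, minus strand; now named Ero1a), had 2324 and 2018 CPM in normal glucose. In high glucose it had 1431 and 1349 CPM. Both high glucose libraries were lower, by a log2 fold change of -0.64 (SE 0.18), with a gap of 0.50. Its paralogue Ero1lb had only 4.79 ± 0.800 and 5.88 ± 0.037 CPM and was higher in both high glucose libraries. Among 12 tested genes of disulfide bond formation, 0 passed and 0 had an unadjusted p under 0.05 (edgeR, smallest adjusted p = 0.948). P4hb, the disulfide isomerase that ERO1 serves, had 1894 ± 20.7 and 1489 ± 36.3 CPM, and the peroxidase Gpx7 15.8 ± 1.01 and 12.3 ± 0.492 CPM. Pdia6 had 49.3 ± 23.8 and 70.9 ± 5.91 CPM. The list's median was 0.06.

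Ndrg1, a stress-induced gene that restrains migration and metastasis in several tumours (chromosome 15, 66929318 to 66969640, minus strand), had 336 and 452 CPM in normal glucose. It had 253 and 224 CPM in high glucose. The groups did not overlap, but the normal glucose replicates differed by 0.43, about as much as the gap of 0.41. The log2 fold change was -0.72 (SE 0.21), with -0.50 when normal glucose replicate 2 was left out and -0.92 when normal glucose replicate 1 was. Ndrg1 overlaps the antisense genes Gm17035 and Gm2895. Of its family, Ndrg2 (239 ± 43.9 and 178 ± 16.1 CPM) and Ndrg4 (148 ± 13.5 and 120 ± 3.17 CPM) were lower in both high glucose libraries. Ndrg3 overlapped (63.0 ± 8.27 and 66.9 ± 6.92 CPM), and 0 of these 3 passed or had an unadjusted p under 0.05 (edgeR).

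**Figure D3:**
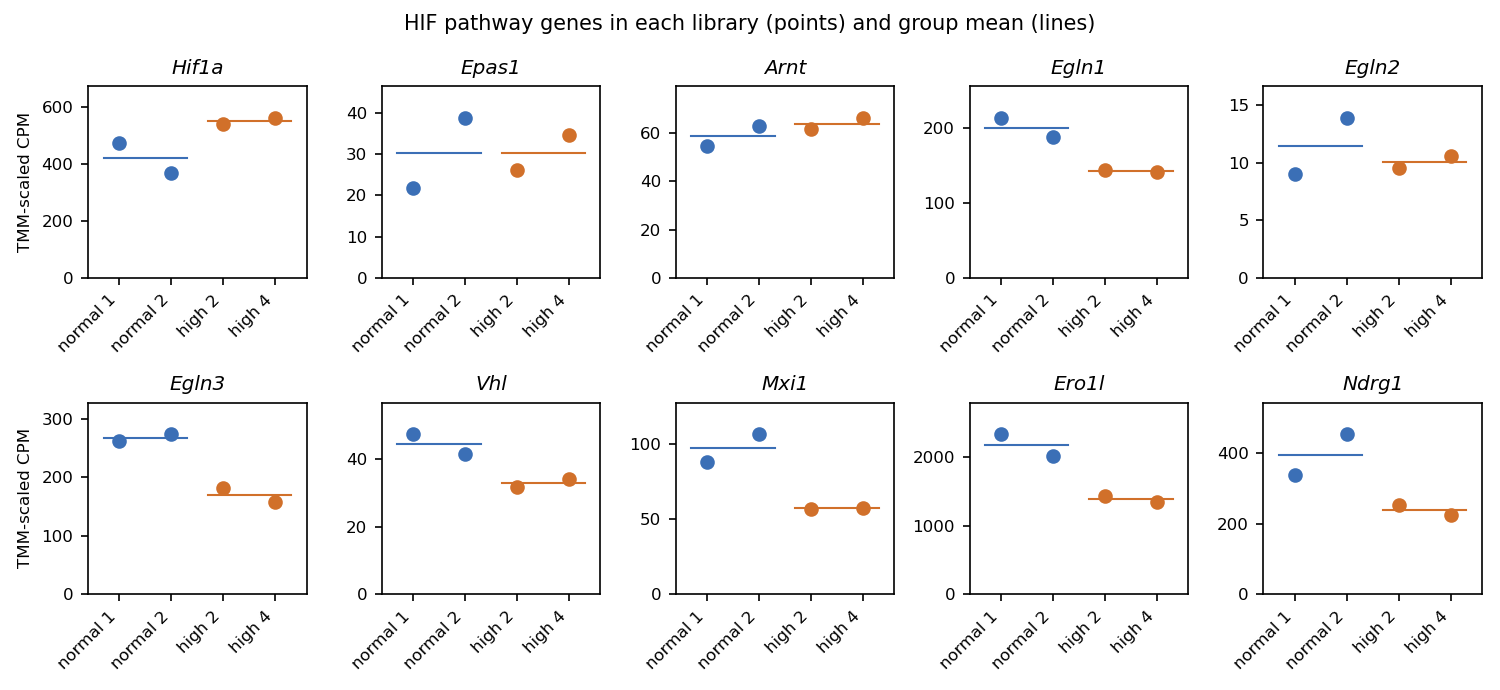
TMM-scaled CPM of each gene in every library (points; each panel starts at 0) with the mean of each group (lines). Egln1, Egln3, Vhl, Mxi1, Ero1l and Ndrg1 are lower in both high glucose libraries, Hif1a is higher in both, and Epas1, Arnt and Egln2 overlap.

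Over the 10 genes, 7 had a log2 fold change below 0, where 50.8% of all 16270 genes tested did. Every high glucose library was below every normal glucose library for 6 members, which 16.2% of all genes showed, and above for 1 member, which 16.3% showed. With the adjusted p threshold of 0.05, 0 of the 10 were called by edgeR's quasi-likelihood test, and 2 genes in all were (0.0123%). DESeq2, limma-voom and edgeR's exact test called 0 members as well, and 0.32%, 0.0123% and 0.676% of the genes that each tested. At an unadjusted p under 0.05 (edgeR's quasi-likelihood test) there were 6 members, all lower. Of all genes tested, 526 (3.23%) were lower and 361 higher at that level. Since earlier values of this contrast were known when the genes were chosen, nothing is read from these counts.

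Single libraries changed the size of the differences. Leaving a library out left 1 in its group, which the fit assumes to vary like the others. Without normal glucose replicate 1, edgeR called 16.2% of all genes, with Hif1a higher and Egln3, Mxi1, Ero1l and Ndrg1 lower among the members. Without normal glucose replicate 2 it called 0.787% of all genes, with Ero1l as the only member. Without high glucose replicate 2, the log2 fold changes of Hif1a, Egln3, Mxi1, Ero1l and Ndrg1 were 0.42, -0.76, -0.75, -0.68 and -0.8. Without high glucose replicate 4 they were 0.36, -0.55, -0.77, -0.6 and -0.64. The 6 members that were lower in both high glucose libraries stayed below 0 in each of these 4 fits, and Hif1a stayed above 0. Their groups do not overlap, so leaving out a library could hardly turn the sign, and nothing is read from this.

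**Figure D4:**
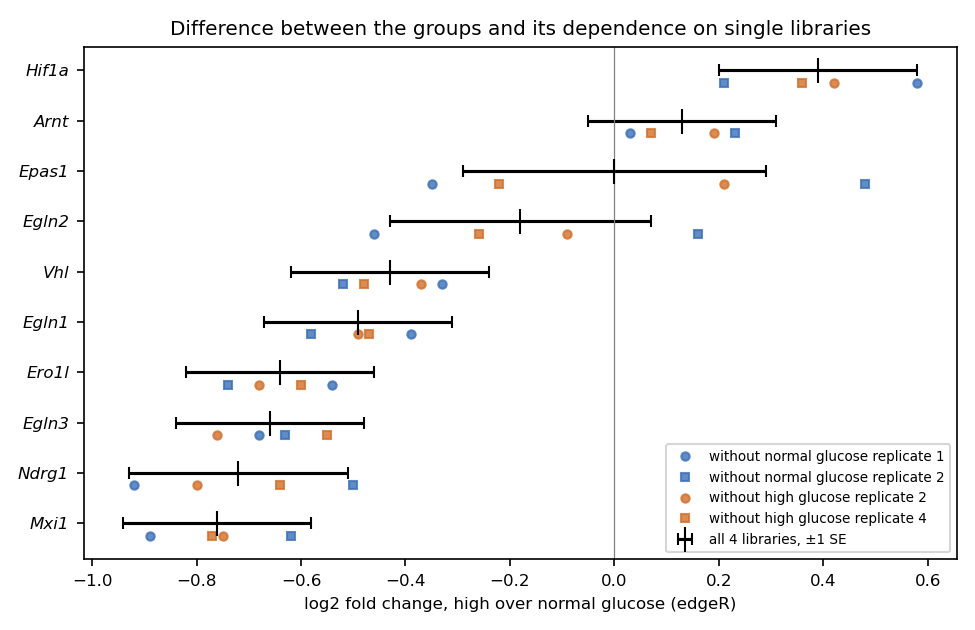
Log2 fold change of each gene, high over normal glucose, from edgeR with all 4 libraries (black, ±1 SE) and with each library left out (coloured symbols). Mxi1, Ndrg1, Egln3, Ero1l, Egln1 and Vhl lie left of 0 in every fit and Hif1a right of it. Their groups do not overlap, so leaving out a library could hardly change the side. Epas1 ranges from -0.35 to 0.48 and Egln2 from -0.46 to 0.16.

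HIF binds DNA at a hypoxia response element with the core ACGTG or GCGTG. RefSeq promoter windows on GRCm38.p6, from 250 bases before to 50 after a start site, were found for 8 of the 10 genes, the entries missing being Epas1 and Ndrg1. Of the 8, 7 held a core on either strand in at least 1 window, and Vhl held none in this window. Among all 27025 genes with a window, 46.7% held one. Shares were also high in lists not made of HIF targets, at 83.3% for disulfide bond formation, 81.8% for the MYC and MAX network and 68.4% for HIF partners and regulators, and nothing particular to the members is read from their 87.5%. Cores are commoner in GC-rich windows: the median GC content was 58.7% in windows with a core and 49.0% without, and the 11 windows of these genes ranged from 49.3% to 86.0%. A match is a run of letters, not a shown binding site. The 250 bases before the start site are given for 4 genes that hold a core and were lower in both high glucose libraries, 5′ to 3′ on the gene's strand, with each core in capitals.

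Egln3, chr12:54203875-54204124, minus strand: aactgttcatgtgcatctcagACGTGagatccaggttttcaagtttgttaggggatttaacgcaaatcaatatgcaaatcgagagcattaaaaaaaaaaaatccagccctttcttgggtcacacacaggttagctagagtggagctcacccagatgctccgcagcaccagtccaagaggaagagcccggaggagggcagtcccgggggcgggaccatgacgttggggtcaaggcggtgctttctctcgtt

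Egln1, chr8:124949255-124949504, minus strand: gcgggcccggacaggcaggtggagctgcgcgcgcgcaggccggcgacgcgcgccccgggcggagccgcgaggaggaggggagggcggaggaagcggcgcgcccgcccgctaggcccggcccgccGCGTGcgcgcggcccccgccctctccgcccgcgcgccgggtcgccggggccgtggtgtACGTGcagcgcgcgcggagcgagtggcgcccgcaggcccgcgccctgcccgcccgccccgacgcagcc

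Mxi1, chr19:53329163-53329412, plus strand: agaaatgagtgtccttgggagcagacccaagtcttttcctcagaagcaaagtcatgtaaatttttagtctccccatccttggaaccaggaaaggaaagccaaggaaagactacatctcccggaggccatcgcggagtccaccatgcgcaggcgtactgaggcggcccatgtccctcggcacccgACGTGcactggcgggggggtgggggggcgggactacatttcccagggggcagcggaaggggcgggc

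Ero1l, chr14:45318573-45318822, minus strand: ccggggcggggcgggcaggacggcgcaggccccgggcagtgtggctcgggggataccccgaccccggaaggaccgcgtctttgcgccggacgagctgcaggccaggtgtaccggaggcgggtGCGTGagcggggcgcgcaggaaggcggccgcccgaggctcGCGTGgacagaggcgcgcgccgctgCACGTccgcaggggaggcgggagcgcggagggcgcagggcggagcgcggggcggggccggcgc

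In Egln3 the single core lies far upstream, its first base 229 bases before the start site. Egln1 carries GCGTG starting 126 and ACGTG starting 68 bases before it. The Mxi1 window shown, 1 of 3 for that gene, has ACGTG starting 66 bases before the start, and Ero1l has GCGTG at 128 and 88 bases and a reverse-strand ACGTG whose first base is at 63. In Hif1a, a pair of the 3 cores overlap as the palindrome CACGTG, which is also the E-box bound by MYC, MAX and MXI1 and which 7.15% of all 32851 windows held. Egln2 held the most, with 6 cores in 1 of its windows, and its groups overlapped. A pair of these 6 likewise overlap as CACGTG.

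Other known HIF targets gave the setting for Mxi1, Ero1l, Egln3 and Ndrg1. They were listed by role in 2 lists, with values of many of them known beforehand. Outside glycolysis, 0 of 39 tested genes passed over all genes (edgeR's quasi-likelihood test), and at an unadjusted p under 0.05 there were 16 lower, where 3.23% of all genes were, and 0 higher. The median log2 fold change was -0.40, with 33 below 0, and 25 were lower in both high glucose libraries (16.2% of all genes) while 0 were higher in both. In glycolysis and glucose transport, 0 of 20 passed (smallest adjusted p = 0.479), with 5 lower and 0 higher at an unadjusted p under 0.05. There the median was -0.31, with 19 below 0, and 13 lower in both high glucose libraries against 0 higher. Over all genes tested the median was 0.00. Other tests on all 4 libraries called a few of these genes, all lower. The exact test of edgeR called 1 in each list (0.676% of all genes). DESeq2 called 1 outside glycolysis (0.32% of all genes), and edgeR with no filter on low counts called 2 there (0.626%).

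Loxl2, a collagen cross-linking enzyme, had 391 and 405 CPM in normal and 220 and 252 CPM in high glucose. The clock-linked repressor Bhlhe40 had 185 and 226 against 129 and 121 CPM, and the chemokine Cxcl12 10.3 and 15.9 against 7 and 6.74 CPM. All 3 were lower in both high glucose libraries, which the choice of genes with the smallest p favours. Vegfa, the angiogenic ligand, had 1620 and 1635 against 1186 and 1377 CPM, and the mitophagy receptor Bnip3 1100 and 1025 against 853 and 790 CPM. Epo, the classical HIF target, was at 0 counts in all 4 libraries.

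Among the glycolytic genes, the aldolase Aldoc had 28.6 and 37.2 CPM in normal and 18.8 and 16.4 CPM in high glucose. The glucose transporter gene Slc2a1 had 2147 and 3158 against 1623 and 1523 CPM. Pdk1, a kinase that inhibits pyruvate dehydrogenase, had 153 and 141 against 99.6 and 109 CPM. The hexokinase Hk1 had 249 and 269 against 172 and 201 CPM. By contrast Ldha, lactate dehydrogenase A, overlapped between groups (4560 and 5171 against 5036 and 4158 CPM). Without normal glucose replicate 1, the median log2 fold changes were -0.38 outside glycolysis and -0.37 within it. Without normal glucose replicate 2 they were -0.37 and -0.28. Leaving out high glucose replicate 2 gave -0.37 and -0.37, and leaving out high glucose replicate 4 gave -0.38 and -0.29.

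**Figure D5:**
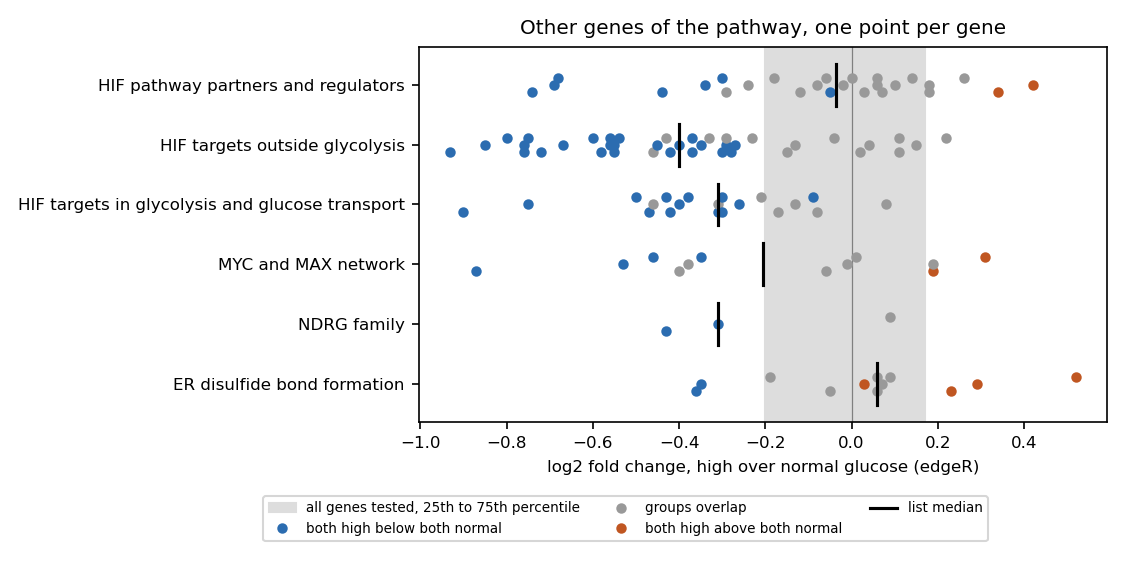
Log2 fold change, high over normal glucose, of every tested gene in 6 lists (points), with list medians (black lines) and the middle 50% of all genes tested (grey band, -0.20 to 0.17). The list medians are -0.40 and -0.31 for the HIF target lists, -0.03 for the regulators and 0.06 for disulfide bond formation.

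The mean profile of Mxi1, Ero1l, Egln3 and Ndrg1 over the 4 libraries, as log2 CPM centred on each gene's mean, was 0.28 and 0.41 in normal and -0.29 and -0.40 in high glucose. Of 10427 other genes with a mean of at least 5 CPM, the nearest by root-mean-square distance were Cox4i2 (0.0271), Celf2 (0.0311), Fkbp1b (0.0327), Ncam1 (0.0413) and Plau (0.0420). With 4 libraries such likeness is a description of these libraries only. Cox4i2 had 44.6 and 50.2 CPM in normal and 31.2 and 27.4 CPM in high glucose.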

How the data were processed

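RNA-seq of 4 libraries was analysed from the counts that the authors deposited as whole numbers by gene symbol, with a file for each library. Per the submitters' processing notes the authors used TopHat, edgeR and the build mm10. Their roles and versions, the counting tool and its strand setting were not given in the sources used here. The files held 23282 rows each, and rows sharing a symbol (35 symbols) were summed to 23238. The 10 members had 1 row each. At most 2.28% of a member's 32-base stretches (Ero1l) occurred in transcripts of other genes.

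Differences were fitted in R 4.3.3 with the quasi-likelihood test of edgeR 4.0.16, TMM scaling, the filterByExpr filter and group as the only term, two-sided, on 16270 genes, adjusted by Benjamini-Hochberg over all of them. The standard error is the size of the log2 fold change divided by the square root of its F statistic. The common coefficient of variation was 20.0%. The fit was tested on simulated data with large changes and less spread than these libraries have. Exon lengths and coordinates came from GENCODE vM21, promoter windows from RefSeq. The chi-square per degree of freedom between libraries was 66.2 to 165, so none was a copy of another.

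The members and the gene lists were chosen with earlier results of these data known. Named genes were the members, the 4 of each pathway list with the smallest p, further genes fixed by role and the 5 nearest profiles. A gene that this rule names is not reported here. Alternatives were other scalings, filters and tests (DESeq2 1.42.0, limma-voom 3.58.1, edgeR's exact and robust tests), separate rows per symbol, leaving out Rn45s, and leaving out each library. The transcript length was changed after the data were seen.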

Additional observations from a re-analysis of the deposited data

How the results depend on the processing

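No paired analysis was possible because just replicate number 2 occurs in both conditions. The number of genes past the threshold, 2 with all libraries, was 127 with no filter on low counts, 65 with DESeq2 and 110 with edgeR's exact test, and ranged from 35 to 2708 when 1 library was left out. It was 2 or 3 under the other alternatives. The number of members below 0, 7, ranged from 6 to 8, and the number whose groups did not overlap from 7 to 8 under other scalings. Of 150 refitted values of the members' log2 fold changes, 143 kept their sign and moved by no more than the spread between replicates. Another 4 moved further and 3 changed sign, all of them with a library left out. The latter were Epas1, between -0.35 and 0.48 with a library left out (-0.22 without high glucose replicate 4), and Egln2, between -0.46 and 0.16. The median of HIF partners and regulators, -0.03, was -0.01 with upper-quartile scaling, 0.00 with library totals, -0.02 with a filter at 1 CPM, and between -0.08 and 0.06 with a library left out. That of the MYC and MAX network, -0.21, lay between -0.40 and 0.03. The medians of the HIF target lists stayed between -0.40 and -0.37 outside glycolysis and between -0.37 and -0.26 within it. The cause of these shifts was not tested. A longer core, TACGTG or ACGTGC, was in 8.22% of promoter windows, against 43.8% for ACGTG or GCGTG. By transcript length, Hif1a over Epas1 in high glucose was 21.6 in place of 17.5. With 2 libraries per group the precision is low, most of all for Epas1 and Egln2, whose normal glucose replicates differed by 0.83 and 0.61 on the log2 scale.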
